A study of Mus musculus with 18 samples.

Results

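Esr1, Pgr, Prlr, Greb1 and Tnfsf11 were followed through 18 mouse mammary tumors with mutant or absent p53. These 5 genes, of 57126 in the count table, are the receptors for estrogen, progesterone and prolactin, the estrogen receptor target Greb1, and Tnfsf11, which encodes the RANKL ligand. They were chosen by name, and their levels were set beside the molecular subtype that the study gives each tumor. Estrogen and progesterone receptors are transcription factors that bind DNA once loaded with hormone, and Prlr is a cell surface receptor that signals through the kinase Jak2 and the transcription factor Stat5. In the normal mammary gland a subset of luminal epithelial cells holds these receptors. Estrogen induces Pgr there, and progesterone induces RANKL and Wnt4, which act on neighbouring cells.

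The study asked how tumors that carry a Trp53 missense allele differ from tumors without p53. Total RNA of whole tumors was sequenced from 7 MaP R172H/-, 5 MaP R245W/- and 6 MaP -/- tumors of female mice that were a cross of BALB/c and C57BL6/J. Young adult mice received adenovirus with Cre-recombinase (Ad-Cre) in the mammary duct, so all 3 groups share the virus and Cre. Recombination left 1 mutant allele opposite a null allele in the mutant groups and 2 null alleles in the MaP -/- group, in epithelial cells that took up the virus, while stromal and immune cells kept wild-type Trp53. A Rosa26 LSL-TdTomato reporter allele was present in 3 MaP R172H/- and 3 MaP R245W/- tumors and in 0 MaP -/- tumors. Each mutant tumor came from its own mouse, but the 6 MaP -/- tumors came from 4 mice, with JM663 and JM833 giving 2 each, so those pairs are not independent. The age at which each tumor was collected was not used here.

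Subtypes were assigned in the study by qRT-PCR of Esr1, Pgr and Erbb2, an assay separate from the sequencing. By that assay 6 MaP R172H/- tumors were luminal B, YZ6 was HER2-enriched, and all 11 MaP R245W/- and MaP -/- tumors were triple-negative (TNBC). Every MaP R172H/- library was read on a HiSeq instrument and every other library on a NovaSeq instrument. Genotype, instrument and subtype therefore divide along the same line and cannot be told apart in a comparison that includes the MaP R172H/- group. Histology nearly follows that line, since every MaP R172H/- tumor was a nonmetaplastic adenocarcinoma. Among the other tumors of known histology JM1564 alone was one, and the rest were metaplastic carcinomas or, in JM1126, a sarcoma. The labels name JM779-T1 and JM836-T1 where the study marks the T2 tumors of these mice as sequenced, so their histology is unclear, although both tumors of each mouse were TNBC.

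Library totals were between 23113578 and 37365062 counts. Summed markers of epithelial cells (Epcam, Cdh1, Krt7, Krt8, Krt18 and Krt19) were present in every tumor but ranged from 144 CPM in JM779-T1 to 9604 CPM in YZ11, and were also low in YZ7 (302) and JM1233 (454). Fibroblast markers reached 19978 CPM in JM1126, adipocyte markers 3175 CPM in JM833-T1, B cell markers 256 CPM in JM833-T2 and skeletal muscle markers 717 CPM in JM1233. CPM is the usual measure of counts relative to the library total, here after TMM scaling. In whole tumors, fewer cells of a type and less RNA per cell cannot be told apart.

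The promoter windows of Greb1, Pgr and Tnfsf11 are shown because Greb1 and Pgr are known targets of the estrogen receptor and Tnfsf11 is a known target of the progesterone receptor. Each runs 5′ to 3′ from 250 bases before to 50 bases after a RefSeq start on GRCm38.p6, an older build than the GRCm39 of the counts. Capitals mark a match to GGTCA or its reverse complement, the single arm of an estrogen response element.
Greb1: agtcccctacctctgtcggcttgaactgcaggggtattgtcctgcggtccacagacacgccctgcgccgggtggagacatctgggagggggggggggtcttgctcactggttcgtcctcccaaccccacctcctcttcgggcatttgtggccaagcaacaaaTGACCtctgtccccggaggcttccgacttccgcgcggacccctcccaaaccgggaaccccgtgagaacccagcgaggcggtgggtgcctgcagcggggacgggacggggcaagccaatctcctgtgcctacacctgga
Pgr: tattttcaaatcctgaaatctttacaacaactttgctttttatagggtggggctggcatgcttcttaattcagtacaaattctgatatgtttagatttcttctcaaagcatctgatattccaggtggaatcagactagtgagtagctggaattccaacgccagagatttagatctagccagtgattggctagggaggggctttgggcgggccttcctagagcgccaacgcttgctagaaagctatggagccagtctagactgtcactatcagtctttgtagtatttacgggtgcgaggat
Tnfsf11: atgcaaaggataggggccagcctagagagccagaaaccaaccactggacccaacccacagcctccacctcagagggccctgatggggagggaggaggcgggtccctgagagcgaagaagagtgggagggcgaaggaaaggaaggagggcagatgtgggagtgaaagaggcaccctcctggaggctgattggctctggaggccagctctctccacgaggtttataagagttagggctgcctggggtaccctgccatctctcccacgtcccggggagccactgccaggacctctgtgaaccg
The Greb1 window, chr12:16800837-16801136 on the minus strand, held 1 match, 88 bases before the start. The Pgr window, chr9:8899583-8899882 on the plus strand, and the Tnfsf11 window, chr14:78307994-78308293 on the minus strand, held none. All 5 genes matched the RefSeq table, with 9 windows in all, and GGTCA on either strand was in 3 of the 9 (Esr1 and both Greb1 windows) beside 40.5% of 32851 windows genome-wide. The estrogen response element palindrome GGTCANNNTGACC was in 0 of 9 windows and in 0.07% of all windows, and the hormone response element GNACANNNTGTNC of the progesterone receptor in 0 of 9 and 0.475%. The STAT5 site TTCNNNGAA was in 2 of 9 windows, 1 each of Esr1 and Prlr, beside 8.3% of all. CAAGGTCA, the core bound by Nr5a2, which overlaps GGTCA, was in 0 of 9 and 1.56%. These matches describe letters in short windows and say nothing about binding elsewhere.

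Group differences below are log2 fold changes with their standard error (SE) from edgeR's quasi-likelihood test, with a Benjamini-Hochberg false discovery rate (FDR) over all genes tested. Calls needed an FDR below 0.05 together with a change of at least 1 on the log2 scale, up or down. Against MaP -/- tumors, 1 of the 5 genes, Tnfsf11, was called lower in MaP R172H/- tumors and 0 were called higher, beside 3.27% called lower and 1.67% called higher of 20954 genes tested. Between MaP R245W/- and MaP -/- tumors 0 of the 5 were called in either direction, where edgeR called 0 of 21452 genes (0% higher, 0% lower) with 2488 at an unadjusted p below 0.05, and DESeq2 called 82 higher and 221 lower but 0 of the 5. Between the mutants Tnfsf11 alone was called, lower in MaP R172H/- tumors, beside 4.07% of 22481 genes called lower and 2.02% called higher. The groups overlapped in all 15 of these gene and group comparisons. The 2 comparisons with MaP -/- tumors share those samples.

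**Figure D1:**
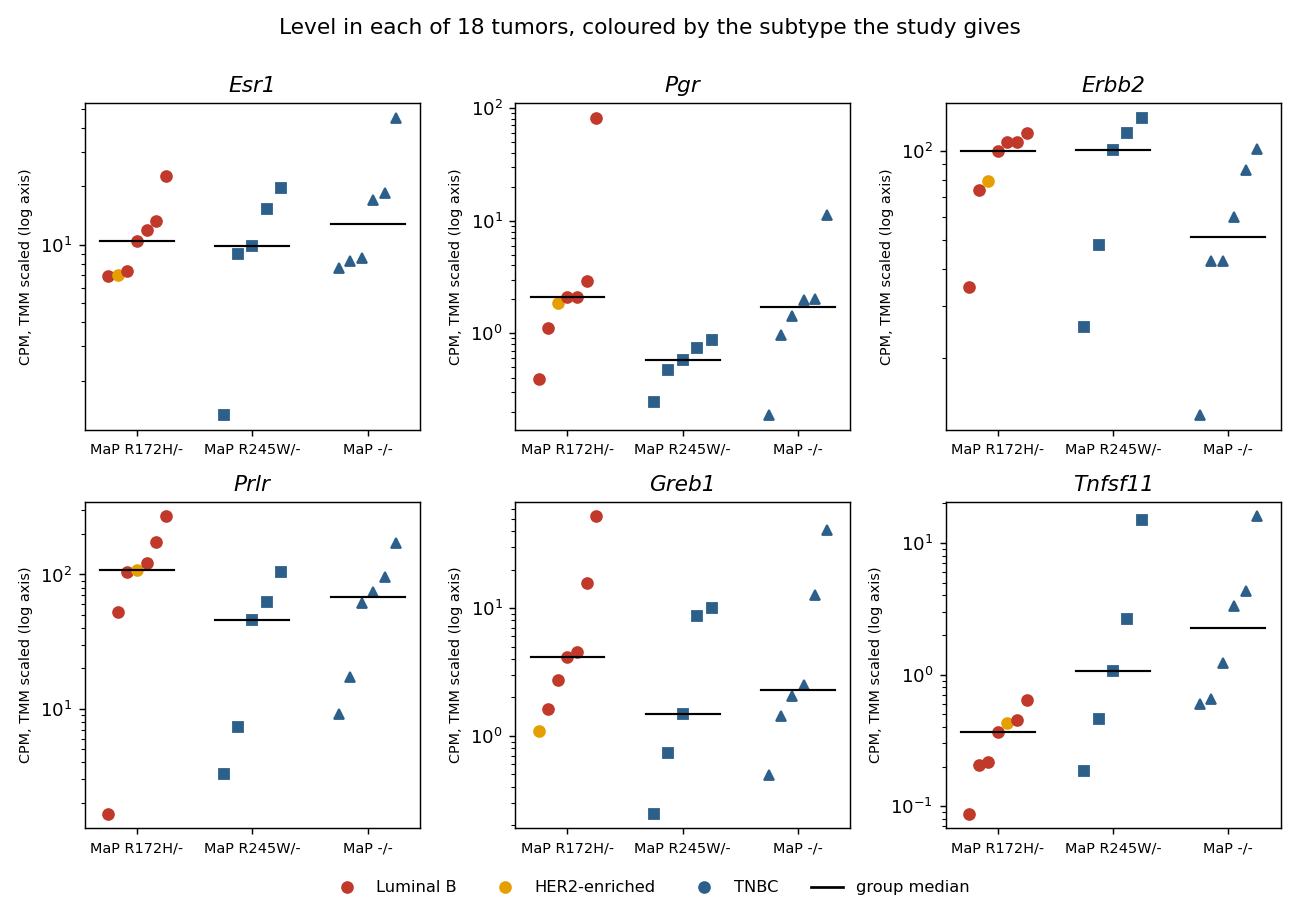
CPM of the 5 genes and of Erbb2 in each tumor (points, log axis), by genotype group, with colours for the qRT-PCR subtype and a black line for the group median. Esr1, Pgr and Erbb2 of luminal B and TNBC tumors overlap, and the MaP R172H/- tumors lie low for Tnfsf11, between 0.0877 and 0.635 CPM.

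Esr1 (ENSMUSG00000019768.17, GRCm39 chromosome 10, 4561593 to 4955626, plus strand) encodes estrogen receptor alpha, whose RNA was one of the 3 measures behind the subtypes. In MaP R172H/- tumors it had a lowest level of 6.88 CPM in YZ7, a median of 10.4 and a highest level of 22.7 in YZ4. MaP R245W/- tumors held 19.7 CPM in JM1233, 15.3 in JM1126, 9.84 in JM1133, 9.0 in RM0014 and 1.33 in JM1564. MaP -/- tumors ran from 7.59 CPM in JM836-T1 through a median of 12.8 to 45 in JM833-T1. Esr1 RNA was thus detected in every tumor, from 43 counts in JM1564 to 1463 in JM833-T1, and the highest level of all 18 was in a TNBC tumor. The HER2-enriched tumor YZ6 held 7.03 CPM, beside 6.88 in luminal B YZ7 and 7.33 in luminal B YZ2, so it did not stand below the luminal B tumors. JM833-T2, from the same mouse as JM833-T1, held 16.9 CPM.

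Mean Esr1 was 11.4 ± 5.60 CPM (SD, n = 7) in MaP R172H/-, 11.03 ± 6.95 (n = 5) in MaP R245W/- and 17.5 ± 14.3 (n = 6) in MaP -/- tumors, and no group differed from another beyond this spread. The log2 fold change of MaP R172H/- over MaP -/- tumors was -0.59 (SE 0.442, FDR 0.437), with a 95% interval from -1.54 to 0.36. That of MaP R245W/- over MaP -/- tumors was -0.67 (FDR 0.699, interval -2.07 to 0.73) and that of MaP R172H/- over MaP R245W/- tumors was 0.04 (FDR 0.972, interval -1.10 to 1.18). These intervals leave room for a difference of 1 on the log2 scale, and without JM833-T1 the first value was -0.04 (FDR 0.952).

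Erbb2, the receptor tyrosine kinase HER2 and the remaining measure of the subtyping, had a mean of 88.0 ± 27.8 CPM in MaP R172H/-, 83.6 ± 44.5 in MaP R245W/- and 57.6 ± 32.3 in MaP -/- tumors. Its highest level of all, 129.0 CPM, was in the TNBC tumor JM1133. RM0014 (114.5), JM663-T1 (101.4), JM1564 (100.6) and JM836-T1 (86.4), all TNBC, were also above HER2-enriched YZ6 (79.3). Erbb2 was lowest in JM779-T1 (12.9), JM1233 (25.6) and luminal B YZ7 (34.9), the same 3 tumors in which the summed epithelial markers were lowest. No comparison was called, with log2 fold changes of 0.64 (FDR 0.329) for MaP R172H/- and 0.53 (FDR 0.702) for MaP R245W/- over MaP -/- tumors, and 0.07 (FDR 0.937) between the mutants.

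Pgr (ENSMUSG00000031870.17, chromosome 9, 8899830 to 8968612, plus strand) encodes the progesterone receptor. A single tumor carried most of its RNA: YZ4, luminal B, held 81.3 CPM from 2459 counts. The other 6 MaP R172H/- tumors were between 0.395 CPM in YZ7 and 2.93 in YZ3, the group median was 2.11, and YZ6 held 1.88. MaP R245W/- tumors held 0.877 CPM in JM1133, 0.745 in RM0014, 0.574 in JM1126, 0.476 in JM1233 and 0.247 in JM1564, from 8 to 26 counts. MaP -/- tumors ran from 0.188 in JM836-T1 through a median of 1.69 to 11.1 in JM833-T1. All 5 MaP R245W/- tumors were below 1 CPM, and luminal B YZ7 and TNBC JM836-T1 and JM779-T1 (0.969) were as well, so the groups overlapped. YZ4 and JM833-T1 were also the tumors with most Esr1 and most Prlr in their groups.

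Mean Pgr was 13.1 ± 30.1 CPM (SD, n = 7), 0.584 ± 0.244 (n = 5) and 2.94 ± 4.05 (n = 6) in the same group order, an SD more than the mean in the first and last. MaP R172H/- over MaP -/- tumors gave a log2 fold change of 2.20 (SE 1.28, FDR 0.310, interval -0.55 to 4.95), which turned to -0.76 (FDR 0.584) without YZ4. DESeq2 replaced the YZ4 count by 55 as an outlier and gave -0.68, with no FDR. MaP R172H/- over MaP R245W/- tumors gave 4.48 (SE 1.39, interval 1.57 to 7.40), which missed the threshold at an FDR of 0.0507. It was 1.59 (FDR 0.216) without YZ4 and 4.70 (FDR 0.0335, called) without YZ7. MaP R245W/- over MaP -/- tumors gave -2.35 (SE 0.851, FDR 0.376, interval -4.21 to -0.48), and -1.18 (FDR 0.608) without JM833-T1. Gm32014, an antisense noncoding gene over Pgr, had at most 164 counts, and the labels call the library stranded but no source used here gives the strand setting of the counting.

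Prlr (ENSMUSG00000005268.21, chromosome 15, 10177258 to 10349959, plus strand) encodes the prolactin receptor and had the highest level per kilobase of exon of the 5 genes in every group median, at 5.82, 2.48 and 3.63 CPM per kb in MaP R172H/-, MaP R245W/- and MaP -/- tumors. In CPM, MaP R172H/- tumors ran from 1.67 in YZ7 through a median of 108.1, the level of YZ6, to 270.2 in YZ4. MaP R245W/- tumors held 104.1 CPM in JM1564, 62.0 in JM1133, 46.0 in RM0014, 7.38 in JM1233 and 3.26 in JM1126. MaP -/- tumors ran from 9.20 in JM779-T1 through a median of 67.5 to 171.8 in JM833-T1. The ranges of the 3 groups overlapped, and the MaP R172H/- group held both the highest and the lowest level of the 18.

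YZ7, JM1233 and JM779-T1, with 1.67, 7.38 and 9.20 CPM of Prlr, were the 3 tumors with the lowest summed epithelial markers (302, 454 and 144 CPM). JM1126, a sarcoma by histology, held 3.26 CPM of Prlr with 4356 CPM of epithelial and 19978 CPM of fibroblast markers, and JM663-T2 held 17.4 CPM with 1799 CPM of epithelial markers. The part of cell composition in Prlr was not tested. Mean Prlr was 119.0 ± 86.1 CPM in MaP R172H/-, 44.5 ± 41.7 in MaP R245W/- and 71.6 ± 59.3 in MaP -/- tumors, and none of the 3 comparisons was called. The log2 fold change was 0.77 (SE 0.796, FDR 0.590, interval -0.94 to 2.48) for MaP R172H/- over MaP -/-, -0.70 (FDR 0.773, interval -2.63 to 1.23) for MaP R245W/- over MaP -/- and 1.42 (FDR 0.355, interval -0.54 to 3.37) between the mutants.

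**Figure D2:**
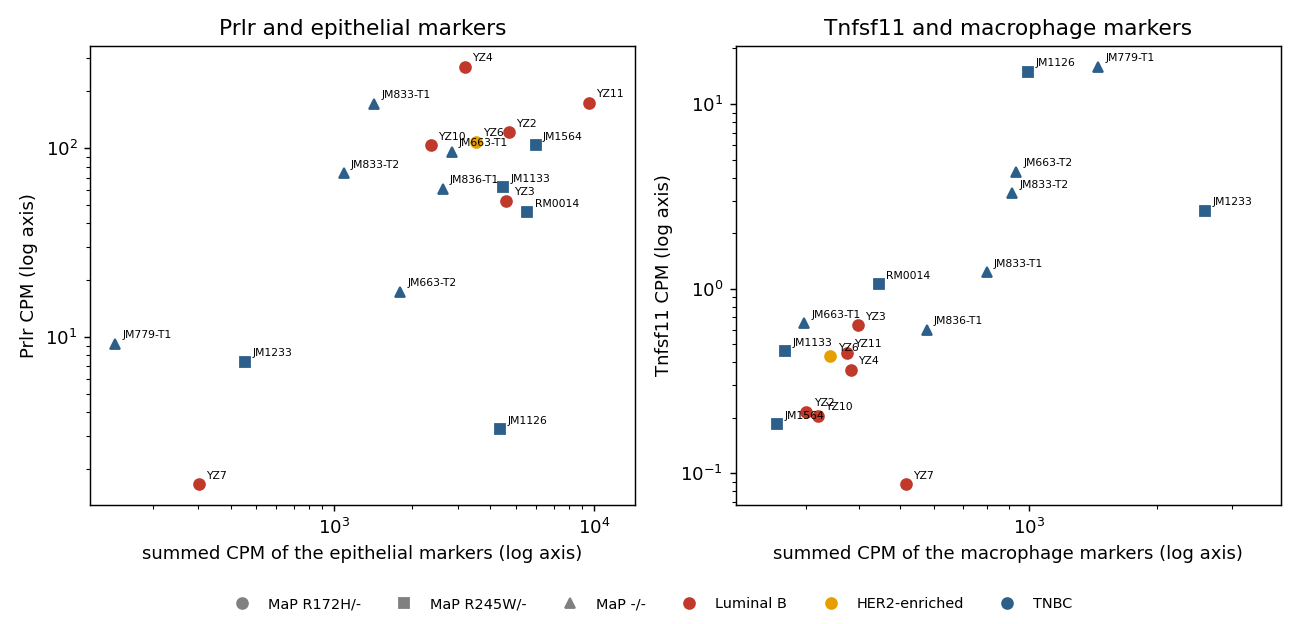
Left, Prlr against the summed epithelial markers, and right, Tnfsf11 against the summed macrophage markers, as CPM of each tumor on log axes, with shapes for genotype and colours for subtype. YZ7, JM1233 and JM779-T1 are low on both axes at left, JM1126 is low for Prlr alone, and JM779-T1 and JM1126 are highest for Tnfsf11 at right.

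Greb1 (ENSMUSG00000036523.17, chromosome 12, 16720616 to 16851015, minus strand), a cofactor of the estrogen receptor and a target of it in human breast cancer cells, varied widely within groups. MaP R172H/- tumors ran from 1.09 CPM in YZ6 through a median of 4.17 to 52.1 in YZ7. MaP R245W/- tumors held 10.1 CPM in RM0014, 8.66 in JM1233, 1.49 in JM1133, 0.734 in JM1126 and 0.247 in JM1564. MaP -/- tumors ran from 0.494 in JM663-T2 through a median of 2.27 to 40.7 in JM779-T1. The 2 tumors with most Greb1, YZ7 and JM779-T1, had Esr1 at 6.88 and 8.59 CPM and Pgr at 0.395 and 0.969 CPM, while the tumors with most Esr1, JM833-T1 and YZ4, had Greb1 at 2.49 and 4.17 CPM.

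Mean Greb1 was 11.7 ± 18.5, 4.24 ± 4.72 and 9.98 ± 15.7 CPM in the same group order. The log2 fold change of MaP R172H/- over MaP -/- tumors was 0.21 (SE 1.08, FDR 0.926, interval -2.12 to 2.55) and moved from -1.01 without YZ7 to 1.64 without JM779-T1, and it was also below 0, at -0.02 and -0.04, without JM836-T1 or JM663-T2. The other values were -1.23 (FDR 0.707, interval -3.87 to 1.40) for MaP R245W/- over MaP -/- tumors and 1.47 (FDR 0.473, interval -1.07 to 4.0) between the mutants. Without JM779-T1 the former was 0.14 (FDR 0.961). Reads of Gm48140, an antisense noncoding gene of at most 31 counts, and of the miRNA gene Gm54388, of at most 4, overlap Greb1.

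Tnfsf11 (ENSMUSG00000022015.9, chromosome 14, 78514885 to 78545490, minus strand) encodes RANKL, the ligand that progesterone induces in the normal gland and that stromal cells and activated T cells also make. It was the only called gene of the 5 and was low in all 7 MaP R172H/- tumors. These ran from 0.0877 CPM in YZ7, from 2 counts, through a median of 0.364 to 0.635 in YZ3, from 18 counts. MaP R245W/- tumors held 14.9 CPM in JM1126, 2.65 in JM1233, 1.06 in RM0014, 0.458 in JM1133 and 0.185 in JM1564. MaP -/- tumors ran from 0.601 in JM836-T1 through a median of 2.26 to 15.9 in JM779-T1. The MaP R172H/- and MaP -/- groups overlapped only in that YZ3 was above JM836-T1, while the MaP R245W/- tumors JM1564 and JM1133 lay within the MaP R172H/- range. By histology JM1564 was a nonmetaplastic adenocarcinoma, as all MaP R172H/- tumors were, and JM1133 a metaplastic sarcomatoid carcinoma. YZ4, with far more Pgr than any other tumor, held 0.364 CPM of Tnfsf11.

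Mean Tnfsf11 was 0.341 ± 0.185 CPM (SD, n = 7) in MaP R172H/-, 3.86 ± 6.27 (n = 5) in MaP R245W/- and 4.34 ± 5.87 (n = 6) in MaP -/- tumors. Against MaP -/- tumors it fell in MaP R172H/- tumors, with a log2 fold change of -3.65 (SE 0.785, FDR 0.0131, interval -5.34 to -1.96). This call held without each of the 13 tumors in turn, with FDRs between 0.00994 and 0.0300, and the fold change was smallest, -2.51, without JM779-T1. Against MaP R245W/- tumors it was lower by -3.48 (SE 0.988, FDR 0.0348, interval -5.56 to -1.40). This second call rested on JM1126, without which the value was -1.64 (FDR 0.263), and it was also lost, at values between -3.55 and -3.31 and FDRs between 0.0525 and 0.0667, without YZ2, YZ4, YZ6, YZ7, YZ10 or YZ11. MaP R245W/- over MaP -/- tumors gave -0.17 (SE 1.13, FDR 0.965, interval -2.65 to 2.32), which was -2.01 (FDR 0.470) without JM1126 and 0.92 (FDR 0.705) without JM779-T1.

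Some markers of macrophages, fibroblasts and other cell types were lower in the same comparisons as Tnfsf11. Against MaP -/- tumors, 4 of 4 macrophage markers were below 0 on the log2 scale in MaP R172H/- tumors, and Adgre1 (-1.04, FDR 0.00704) and Mrc1 (-2.03, FDR 0.0249) fell. Their summed level was between 301 and 516 CPM in MaP R172H/-, 257 and 2595 in MaP R245W/-, and 297 and 1455 in MaP -/- tumors. Of 5 fibroblast markers 4 were below 0, and Pdgfra (-2.49, FDR 0.0281) and Lum (-1.98, FDR 0.0270) fell, while the sum lay between 1855 and 4899 CPM beside 2493 to 5482 in MaP -/- tumors. T cell markers were below 0 in 6 of 6 with none called, with sums from 4.01 to 24.3 CPM in MaP R172H/- and 8.56 to 98.9 in MaP -/- tumors. B cell markers (4 of 4 below 0) and adipocyte markers (5 of 5 below 0) were not called either. Endothelial markers were below 0 in 3 of 3, and Pecam1 (-0.77, FDR 0.0138) passed the FDR but not the fold change threshold. Skeletal muscle markers were above 0 in 3 of 3 tested, with none called. No macrophage, fibroblast or T cell marker was at 0 in any tumor. Against MaP R245W/- tumors Adgre1 (-1.31, FDR 0.0314) and Lum (-2.60, FDR 0.0362) fell, with 3 of 4 macrophage and 5 of 5 fibroblast markers below 0. There the T cell (5 of 6), B cell (4 of 4) and adipocyte markers (5 of 5) were above 0, with medians of 0.26, 0.76 and 3.63 and none called. Endothelial markers (3 of 3, none called) and skeletal muscle markers (3 of 3 tested) were below 0 there. Of the latter, Acta1 (-6.01, FDR 0.00833) and Myh4 (-4.69, FDR 0.0323) were called. The highest Tnfsf11 levels, in JM779-T1 and JM1126, stood beside macrophage sums of 1455 and 998 CPM, whereas JM1233, with the highest sum, 2595 CPM, held 2.65 CPM of Tnfsf11. The part of these cells in the Tnfsf11 result was not tested.

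**Figure D3:**
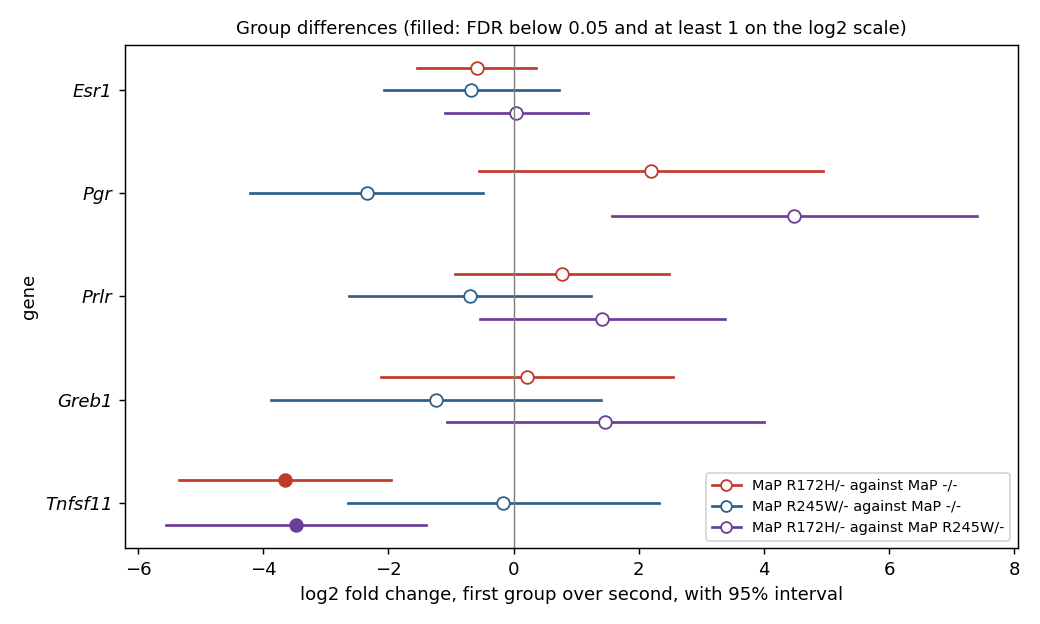
Log2 fold changes of the 5 genes (points) with 95% intervals (lines) in the 3 comparisons, where a filled point marks a called gene. Tnfsf11 is called in both comparisons of MaP R172H/- tumors, at -3.65 and -3.48, and Pgr has the widest interval, 1.57 to 7.40, between the mutants.

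Set per kilobase of exon, the order of the group medians differed only in where Tnfsf11 stood. After Prlr came Esr1 (0.747 CPM per kb), Greb1 (0.429), Pgr (0.247) and Tnfsf11 (0.162) in MaP R172H/- tumors. In MaP R245W/- tumors the order was Esr1 (0.705), Tnfsf11 (0.473), Greb1 (0.153) and Pgr (0.0672). The MaP -/- order was Tnfsf11 (1.01), Esr1 (0.914), Greb1 (0.234) and Pgr (0.198). The values of neighbouring genes in these orders overlap across tumors, and exon length was that of all annotated exons, whichever isoform a tumor used.

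Pairs of the 5 genes were compared across tumors on the log2 CPM scale, apart within the 11 NovaSeq and the 7 HiSeq tumors. None of 20 relations passed after Benjamini-Hochberg adjustment over them. The largest among NovaSeq tumors, which came from 9 mice, was between Prlr and Tnfsf11, with a Pearson r of -0.80 (permutation p = 0.00570, adjusted 0.114) and a Spearman rho of -0.64 (permutation p = 0.0397, adjusted 0.397). Without JM1126 and JM1233, the tumors farthest from the median Prlr, r was -0.77. Among the 7 MaP R172H/- tumors r was 0.66 for the same pair (exact permutation p = 0.200, adjusted 0.538), and rho was 0.29 (exact permutation p = 0.556, adjusted 0.741). Esr1 and Pgr had an r of 0.68 among NovaSeq tumors (permutation p = 0.0158, adjusted 0.158) and a rho of 0.50 (permutation p = 0.121, adjusted 0.397), and r was 0.20 without JM1564 and JM833-T1, so it rested on those 2 tumors. In the HiSeq tumors r for that pair was 0.81 (exact permutation p = 0.0794, adjusted 0.317), rho was 0.64 (exact permutation p = 0.139, adjusted 0.397), and r was -0.25 without YZ4 and YZ7. Esr1 and its target Greb1 had an r of 0.40 (permutation p = 0.215, adjusted 0.538) and -0.0061 (exact permutation p = 0.946, adjusted 0.946) in the NovaSeq and HiSeq tumors, with a rho of 0.49 (permutation p = 0.130, adjusted 0.397) and 0.11 (exact permutation p = 0.840, adjusted 0.860). Without the same 2 tumors as above, r for Esr1 and Greb1 was 0.13 and 0.80. By r the largest among HiSeq tumors was between Prlr and Greb1, at -0.82 (exact permutation p = 0.0556, adjusted 0.278), and -0.73 without YZ7 and YZ4. Its rho was -0.64 (exact permutation p = 0.139, adjusted 0.397). Pgr and Prlr had an r of 0.63 there (exact permutation p = 0.0321, adjusted 0.214), and -0.36 without YZ4 and YZ7.

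Genes most like each of the 5 in level over the 18 tumors were found by Spearman's rho of log2 CPM, among 15196 protein-coding genes. The 18 tumors differ in genotype and instrument, so rho over all of them also takes in differences between the groups. The 11 NovaSeq tumors share an instrument but not a genotype. Prlr was closest to Zfp750 (rho 0.955 over 18 tumors and 0.909 over the 11 NovaSeq tumors), Slc28a3 (0.930 and 0.927) and Adgrg1 (0.915 and 0.873). Zfp750 encodes an epidermal differentiation factor and Slc28a3 a nucleoside transporter. Tnfsf11 was closest to Cd47 (0.924 and 0.864), a ligand that restrains phagocytosis, and Lilrb4a (0.917 and 0.818), a myeloid inhibitory receptor. Pgr was closest to Mycn (0.868 and 0.764), Spns3 (0.822 and 0.582) and Mycl (0.818 and 0.691). Esr1 was closest to Rnase6 (0.866 and 0.845), Esyt1 (0.843 and 0.873) and Scart2 (0.831 and 0.745). Greb1 had the weakest likeness, to Efcab5 (0.773 and 0.80), Sass6 (0.759 and 0.664) and Rnf151 (0.742 and 0.727).

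The other genes of the hormone pathways were read as whole lists. Among 16 estrogen receptor targets, 12 passed the filter on low counts. Pdzk1, Tff1, Tff3 and Agr2 did not, Tff1 with a count in 2 tumors only and both trefoil genes below 0.06 CPM throughout. Of the 12, 2 rose and 0 fell in MaP R172H/- over MaP -/- tumors, beside 1.67% called higher and 3.27% called lower of all genes tested. Their median log2 fold change was 0.42 beside 0.0027 over all genes tested. Ccnd1, which encodes cyclin D1 and drives entry into S phase, rose by 1.39 (SE 0.306, FDR 0.0145). Its groups did not overlap, at 282 to 579 CPM in MaP R172H/- and 64.4 to 237 in MaP -/- tumors, a call that held without each tumor in turn. Rara, the retinoic acid receptor alpha gene, rose by 1.16 (SE 0.261, FDR 0.0153), with levels of 35.5 to 112.8 beside 24.7 to 42.6 CPM, and missed the threshold with the tumors of 1 mouse summed (FDR 0.0667). In this comparison 6 of 6 epithelial markers (median 1.33) and 4 of 4 basal epithelial markers (median 2.71) were above 0, with none called. Their sums ran from 302 to 9604 and from 185 to 1817 CPM in MaP R172H/- tumors, beside 144 to 2837 and 18.4 to 494 CPM in MaP -/- tumors, and their part in these calls was not tested. In the same tumors Areg, an EGF receptor ligand induced by estrogen, had a value of -0.73 (FDR 0.696), and Xbp1 one of -0.47 (FDR 0.503). Between the mutants 0 of the 12 were called, with a median of 0.24, and 0 in MaP R245W/- over MaP -/- tumors, with a median of 0.01.

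Of 12 receptor partners and hormone-sensing luminal genes, all tested, 0 were called against MaP -/- tumors in either mutant. Medians were 0.46 for MaP R172H/- and -0.17 for MaP R245W/- tumors, and 0.32 between the mutants. Foxa1, the pioneer factor that opens chromatin for the estrogen receptor, rose in MaP R172H/- over MaP R245W/- tumors by 4.07 (SE 1.14, FDR 0.0323). It was the 1 call of 12 in that comparison, beside 2.02% of all genes tested called higher. Its level was from 0 in YZ7 through a median of 2.74 to 22.3 CPM in YZ4, beside 0.0926 to 1.03 CPM in MaP R245W/- tumors, and the groups overlapped. Leaving out YZ4 gave 3.21 (FDR 0.0641), and leaving out JM1233, JM1564, RM0014 or JM1126 each also ended the call. It was lost as well without the filter on low counts (FDR 0.0584) and in a fit of the 2 mutant groups alone (FDR 0.0591). The corepressor gene Ncor1 (0.72, FDR 0.0217) passed the FDR but not the fold change threshold between the mutants.

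Among 8 progesterone receptor targets, Ccnd1 was the 1 of 7 tested that rose in MaP R172H/- over MaP -/- tumors, beside 1.67% of all genes tested. With 0 lower, the median was 0.02. Wnt4, the Wnt ligand that progesterone induces in luminal cells, rose in MaP R172H/- over MaP R245W/- tumors by 3.36 (SE 0.969, FDR 0.0375). It was the 1 call of 7, beside 2.02% of all genes tested called higher. The groups did not overlap, at 1.90 to 33.1 CPM with the highest in YZ4 and 0.340 to 1.75 CPM. Without YZ4 it was 2.74 (FDR 0.0750), and the call was also lost without YZ11 or any 1 MaP R245W/- tumor, and without the filter on low counts (FDR 0.0664). Calca was tested only in MaP R245W/- over MaP -/- tumors, where 0 of 8 were called with a median of 0.05. Beside Foxa1 and Wnt4, 4 of 4 basal epithelial markers were above 0 between the mutants (median 2.92, none called). Basal sums ran from 185 to 1817 CPM, the highest in YZ4, beside 21.6 to 201 CPM in MaP R245W/- tumors. Of 6 epithelial markers, 4 were above 0 and 2 below in that comparison (median 0.25, none called). The part of these markers in the Foxa1 and Wnt4 results was not tested.

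**Figure D4:**
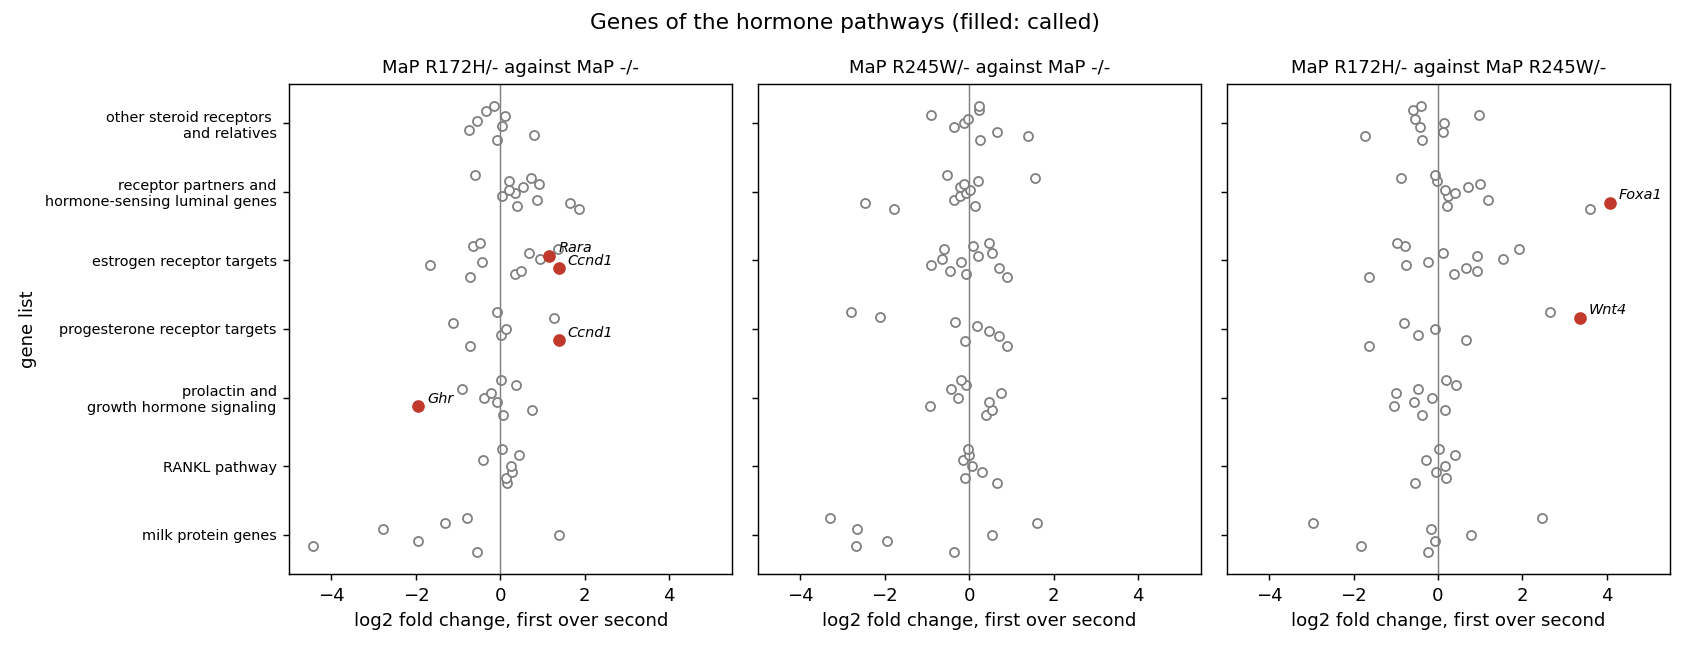
Log2 fold changes of the genes in 7 hormone pathway lists (points) in the 3 comparisons, 1 row a list, with called genes filled and named. Called genes are Ccnd1, Rara and Ghr against MaP -/- tumors in MaP R172H/- tumors, and Foxa1 and Wnt4 between the mutants.

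Of 9 genes of prolactin and growth hormone signaling, Ghr fell and 0 rose in MaP R172H/- over MaP -/- tumors, with a median of -0.08. Of all genes tested there, 3.27% were called lower and 1.67% higher. The other comparisons had 0 calls and medians of -0.08 and -0.38. Ghr, the growth hormone receptor, abundant in fat and fibroblasts, fell by 1.94 (SE 0.538, FDR 0.0414), from a median of 83.0 CPM, with 404.6 in JM833-T1, to a median of 34.4 CPM. The call was lost without 9 of 13 tumors in turn (FDR up to 0.0910) and without the filter on low counts (FDR 0.0802), and 5 of 5 adipocyte markers were below 0 in the same comparison, with a median of -3.61. The kinase and transcription factor genes downstream of Prlr were not called in any comparison: Jak2 had a value of -0.08 (FDR 0.907), Stat5a of 0.38 (FDR 0.532) and Stat5b of 0.02 (FDR 0.974) in MaP R172H/- over MaP -/- tumors. Neither was Elf5, the alveolar transcription factor that prolactin induces (0.74, FDR 0.368).

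The 7 genes around RANKL showed 0 calls in all 3 comparisons, with medians of 0.16, 0.0037 and 0.034. Tnfrsf11a, its receptor RANK, had values of -0.41 (FDR 0.325) in MaP R172H/- and -0.15 (FDR 0.842) in MaP R245W/- over MaP -/- tumors, and group means of 30.9 ± 8.96, 37.8 ± 9.46 and 41.7 ± 14.2 CPM. Tnfrsf11b, the decoy receptor osteoprotegerin, had a value of 0.45 (FDR 0.699) in MaP R172H/- over MaP -/- tumors, where Nfkb2 was at 0.29 (FDR 0.356), Traf6 at 0.04 (FDR 0.912) and the target Id2 at 0.16 (FDR 0.820).

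Among 10 other steroid receptors and relatives 0 were called in any comparison, with 8, 9 and 9 tested. The most abundant were Nr3c1, the glucocorticoid receptor, with a log2 value of -0.56 (FDR 0.0634) in MaP R172H/- over MaP -/- tumors, Pgrmc1 at -0.35 (FDR 0.303), Pgrmc2 at -0.15 (FDR 0.674) and Esrra at 0.80 (FDR 0.0546). Esr2, the second estrogen receptor gene, was at or below 2.20 CPM in every tumor. The 7 milk protein genes, targets of prolactin in the lactating gland, were not called either, with medians of -1.31, -1.94 and -0.18 in MaP R172H/- over MaP -/-, MaP R245W/- over MaP -/- and MaP R172H/- over MaP R245W/- tumors. In the first comparison 6 of the 7 were below 0, from -0.56 (FDR 0.790) for Csn1s1 to -4.45 (FDR 0.0576) for Csn1s2a, and Csn3 was above 0 at 1.39 (FDR 0.474).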

How the data were processed

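Per the labels and the study's methods, the authors extracted total RNA from frozen tumor pieces, checked reads with FastQC 0.11.9, aligned them to GRCm39 with STAR 2.7.10b and quantified GENCODE M34 genes with RSEM 1.3.3. The deposited values are whole-number counts per gene without normalization, and totals were between 23113578 and 37365062 per tumor. Of 57126 genes, 56620 matched the GENCODE M39 annotation used here by identifier and 506 did not. Car12 stands for Ca12.

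Groups came from the labels. Here the counts were scaled by TMM, filtered with filterByExpr and tested with edgeR 4.0.16 (glmQLFit with the robust option, glmQLFTest) in R 4.3.3, with Benjamini-Hochberg adjustment over all genes. Each mutant group was fitted with the MaP -/- tumors, and the mutants were compared in a fit of all 18. No covariate was used, because instrument follows genotype for the MaP R172H/- group and the MaP R245W/- and MaP -/- groups share an instrument. DESeq2 1.42.0 was an alternative. The script was tested on simulated data. Permutation tests used Python 3.11.15 and scipy 1.17.1, with 100000 resamples where enumeration was too large.

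The 5 genes, the lists and the tests were chosen with earlier results of these data known. The named genes are the 5 with Erbb2, every pathway gene called, the most abundant genes of lists without a call, and the 3 genes most like each of the 5, except that some genes are not reported here. Chosen after their values were seen were Areg, Xbp1, Ncor1, Calca, Esr2, Tnfrsf11a, Jak2, Stat5a, Stat5b and Elf5, and the genes that did not pass the filter. Each tumor was a replicate, although the 6 MaP -/- tumors came from 4 mice. Alternatives were DESeq2 size factors or Wald test, no filter, other thresholds, other fits, tumors of 1 mouse summed and each tumor left out.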

Additional observations from a re-analysis of the deposited data

Results flagged for a closer look

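In 8 of 18 groups of tumors, each of 1 gene and 1 genotype (the 5 genes and Erbb2), the highest tumor stood farther from the next than Dixon's test allows at 95%. Chance gives this in about 1 in 20 groups where values are independent and normally distributed, a rate that was not tested for these skewed CPM values. Esr1 stood out at 22.7 CPM in YZ4 and 45 CPM in JM833-T1. The same tumors stood out for Pgr, at 81.3 CPM in YZ4 beside 2.93 in the next MaP R172H/- tumor, and at 11.1 CPM in JM833-T1 beside 2.02 in JM833-T2 from the same mouse. Greb1 stood out at 52.1 CPM in YZ7 and 40.7 CPM in JM779-T1. Tnfsf11 stood out at 14.9 CPM in JM1126 and 15.9 CPM in JM779-T1.

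The differences of the mutant groups from MaP -/- tumors in Tnfsf11 were -3.48 apart on the log2 scale (edgeR quasi-likelihood test, FDR 0.0348), which is the comparison of the mutants themselves. Genotype, instrument and subtype cannot be told apart in it. The value was -1.64 (FDR 0.263) without JM1126, and the call was also lost without YZ2, YZ4, YZ6, YZ7, YZ10 or YZ11.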

How the results depend on the processing

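Of the 5 genes, no call against MaP -/- tumors changed under DESeq2's size factors, the DESeq2 Wald test, no filter on low counts, other fold change thresholds, a fit of all 18 tumors, or tumors of 1 mouse summed. Between the mutants, Tnfsf11 lost its call without the filter on low counts (-3.44, FDR 0.0664, 0 of the 5 called), and without edgeR's robust option, an alternative chosen after seeing the data, Pgr passed it (4.48, FDR 0.0484, 2 called). Against MaP -/- tumors in MaP R172H/- tumors, Pgr turned to -0.68 under DESeq2, which replaced the YZ4 count, and Greb1 to -0.13 with tumors of 1 mouse summed. The causes of the other changes were not tested.

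Genes called in MaP R172H/- over MaP -/- tumors numbered 688 higher and 1438 lower by DESeq2, 757 higher by FDR alone, 66 and 216 above a log2 fold change of 2, and 223 higher with mice summed. For MaP R245W/- over MaP -/- tumors they were 82 and 221 by DESeq2 and 1 and 1 in a fit of all 18. Between the mutants they were 989 and 1413 by DESeq2, 252 higher without the filter, 1445 lower by FDR alone, and 122 and 394 above 2.

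Without each tumor in turn, genes called were 237 to 378 higher and 489 to 773 lower in MaP R172H/- over MaP -/-, 0 to 1 and 0 to 3 in MaP R245W/- over MaP -/-, and 264 to 539 and 775 to 976 between the mutants. Of the 5 genes 1 was called in every fit of the first, 0 in the second and 0 to 1 in the third. Fold changes for MaP R172H/- over MaP -/- ran from -0.76 to 3.36 for Pgr, -1.01 to 1.64 for Greb1 and -3.88 to -2.51 for Tnfsf11. They ran from -1.86 to 0.14 for Greb1 and -2.01 to 0.92 for Tnfsf11 in MaP R245W/- over MaP -/-, and from -0.24 to 0.36 for Esr1, -0.16 to 0.28 for Erbb2, 1.59 to 4.70 for Pgr and -3.78 to -1.64 for Tnfsf11 between the mutants. No paired analysis was possible because the groups share no mouse and no replicate number in the labels. Counts of 2 to 26 limit Tnfsf11 in MaP R172H/- and Pgr in MaP R245W/- tumors.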

Other observations

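YZ4 and JM833-T1, from different genotypes and read on different instruments, shared more than Esr1, Pgr and Prlr. In its own group each was also the highest for Foxa1 (22.3 CPM in YZ4, 4.89 in JM833-T1) and for Ghr (67.4 and 404.6 CPM), and each held the highest summed adipocyte markers (234 and 3175 CPM). YZ4 held the highest summed basal epithelial markers of all tumors, 1817 CPM, beside 156 CPM in JM833-T1. By single marker, each was the highest of its own group for Krt5 and Krt17. JM833-T1 was also the highest of its group for Trp63, where YZ7 was the highest MaP R172H/- tumor. For Krt14 YZ4 was the highest of its group, while JM663-T2 was the highest MaP -/- tumor. The tumors and the genes of this comparison were chosen after their values were seen. YZ4 is luminal B and JM833-T1 TNBC in the study's subtyping.

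YZ7, luminal B in that subtyping, was the lowest of its group for Esr1, Pgr, Prlr, Erbb2, Tnfsf11 and Stat5b (15.0 CPM), and was listed at 0 counts for Foxa1. It was the highest of its group for Greb1 (52.1 CPM), Cited1 (17.1 CPM) and the basal epithelial marker Trp63 (187.4 CPM). Every epithelial marker was also lowest of the group in YZ7, with a sum of 302 CPM beside 2356 CPM in the next lowest, YZ10. Gata3, Nrip1 and Bcl2 were lowest there as well. The part of epithelial RNA in its receptor levels was not tested. The pattern was chosen after its values were seen.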
